A study of Homo sapiens with 6 samples.

Results

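Untreated K562 cells were described from the 2 ATAC-seq libraries at 0 h, out of 6 libraries in the series; the other 4 were treated with a phorbol ester and are not analysed here. K562 is a human line established from a chronic myelogenous leukaemia, labelled as wild type in genotype. Both libraries stand at 0 h of the treatment series, with replicate numbers 1 and 2. Their treatment label reads PMA (megakaryocyte differentiation) 0h, PMA being the phorbol ester, and a PMA dose of 25 nM is given for both. The line is a single established line, and the labels do not say whether the replicates were separate cultures, so the spread between them may be technical. The cells were grown in RPMI medium with serum and prepared by Omni-ATAC, a form of the assay made to lower the share of mitochondrial reads. The deposited table listed 181135 sites, and replicate 1 held 17669446 counts over them and replicate 2 held 24470037. The authors' peak lists held 61873 peaks in replicate 1 and 69152 in replicate 2, and 50344 of the listed sites overlapped a peak of both libraries. With 2 libraries of 1 group there is no contrast to test, so values are given per library as a description. Counts are given as CPM, the usual scaling of a site's count by its library's total over the listed sites.

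In ATAC-seq a transposase cuts DNA where it is not covered by nucleosomes or tightly bound protein, so the read count over a site measures how accessible the site was. Gene starts of active and poised genes are usually accessible in every cell type, while sites far from genes, many of them enhancers, differ between lineages. K562 cells are known for an erythroid and megakaryocytic character: they can make embryonic and fetal haemoglobin, and they carry the BCR-ABL1 fusion gene that drives the leukaemia. In these lineages GATA factors bind sites with the core letters AGATAA, often beside TAL1, LMO2 and LDB1, and KLF factors bind CACCC boxes.

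The promoters of 5 genes to which the results return are shown here, from the RefSeq promoter table for GRCh38.p14, each from 250 bases before to 50 bases after a start and written 5′ to 3′ on the strand of the gene. SDF2L1 is shown because it had the strongest site at any protein-coding start by the mean of both libraries, and its capitals mark the CCAAT box on either strand (CCAAT or ATTGG). The other 4 are genes of the erythroid and megakaryocytic lineages that hold the GATA core, and their capitals mark AGATAA or its other strand TTATCT and, for PPOX, the CACCC box CCACACCC on its other strand (GGGTGTGG). Where the promoter table held several promoters of a gene, the one with the most marked matches was printed. LYL1, PPOX and GP6 were open in both libraries, and ALAS2 is shown because it was not.
SDF2L1 (chr22:21642052-21642351, plus strand): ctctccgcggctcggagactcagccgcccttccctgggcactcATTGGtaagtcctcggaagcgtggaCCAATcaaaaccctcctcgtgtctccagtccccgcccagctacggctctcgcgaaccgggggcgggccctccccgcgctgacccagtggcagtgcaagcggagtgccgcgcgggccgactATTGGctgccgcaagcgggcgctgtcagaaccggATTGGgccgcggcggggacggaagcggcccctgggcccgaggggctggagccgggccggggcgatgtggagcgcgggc
LYL1 (chr19:13102809-13103108, minus strand): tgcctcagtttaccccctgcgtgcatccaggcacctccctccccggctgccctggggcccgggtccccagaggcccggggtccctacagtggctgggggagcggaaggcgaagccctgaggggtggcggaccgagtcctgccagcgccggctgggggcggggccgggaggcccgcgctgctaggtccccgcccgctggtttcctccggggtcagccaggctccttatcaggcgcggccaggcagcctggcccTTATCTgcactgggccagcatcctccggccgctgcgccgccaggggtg
PPOX (chr1:161166396-161166695, plus strand): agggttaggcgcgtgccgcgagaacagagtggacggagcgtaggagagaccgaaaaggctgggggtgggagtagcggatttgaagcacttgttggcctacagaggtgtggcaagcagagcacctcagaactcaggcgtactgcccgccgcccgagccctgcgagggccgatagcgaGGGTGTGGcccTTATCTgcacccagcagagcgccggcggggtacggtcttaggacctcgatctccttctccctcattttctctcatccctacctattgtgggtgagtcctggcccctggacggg
GP6 (chr19:55038215-55038514, minus strand): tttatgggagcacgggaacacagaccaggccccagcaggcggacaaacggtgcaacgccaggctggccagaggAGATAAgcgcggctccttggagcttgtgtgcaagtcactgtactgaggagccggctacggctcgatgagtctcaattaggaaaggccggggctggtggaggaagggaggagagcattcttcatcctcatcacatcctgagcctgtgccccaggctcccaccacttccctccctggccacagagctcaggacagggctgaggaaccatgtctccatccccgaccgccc
ALAS2 (chrX:55030928-55031227, minus strand): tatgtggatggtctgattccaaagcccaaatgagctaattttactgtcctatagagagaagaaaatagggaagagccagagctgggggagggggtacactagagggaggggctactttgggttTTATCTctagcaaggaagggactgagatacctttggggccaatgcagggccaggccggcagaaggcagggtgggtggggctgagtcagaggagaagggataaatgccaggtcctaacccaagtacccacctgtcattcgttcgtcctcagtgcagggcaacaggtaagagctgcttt

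Counting from the start base, the 4 CCAAT matches of SDF2L1 began at -207, -182, -62 and -28. The GATA core began at 2 in LYL1, at -63 in PPOX, at -177 in GP6 and at -127 in ALAS2, and the CACCC box of PPOX at -74. A match of letters describes the sequence and does not show that a factor was bound.

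By CPM, the strongest sites of untreated cells were mostly at repeated genes and copies of mitochondrial DNA, not at known starts of protein-coding genes. The ranking depended on the measure: 9 of the 20 strongest sites stayed among the first 20 by CPM per kb, and 1 by the authors' fold enrichment. The 4 highest sites lay side by side in chr1:628719-635020 (hg38), over the nuclear pseudogenes of mitochondrial genes MTND1P23, MTND2P28, MTCO1P12, MTATP8P1, MTATP6P1 and MTCO3P12. The first of them, chr1:628719-630363, held 5516 CPM in replicate 1 and 2523 CPM in replicate 2, and the fourth, over MTCO1P12, held 3116 and 1437 CPM. The other pair held 3985 and 1830 CPM and 3200 and 1473 CPM, and all 4 were higher in replicate 1, by 2.17 to 2.19 times. Such copies share their sequence with the mitochondrial genome, and how reads that fit several places were counted is not given in the sources used here. The remaining 16 of the 20 strongest sites lay in the ribosomal RNA gene arrays of chromosome 21, on unplaced or unlocalized scaffolds, or at chr3:93470195-93470995, where no gene is annotated. In the arrays, chr21:8217420-8220027 over RNA45SN2 held 1364 and 972 CPM and chr21:8444611-8447008 over RNA45SN1 held 1340 and 930 CPM.

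Outside those sequences, the strongest sites more than 10000 bases from any protein-coding start included genes of short RNAs and a microRNA cluster. Around chr1:161454251-161455878, a run of repeat units with tRNA genes for glutamate, glycine and aspartate held 258 CPM in replicate 1 and 389 CPM in replicate 2 at its strongest site, and its next site held 253 and 382 CPM. The snRNA gene LOC124904138 on chromosome 17 gave 274 and 269 CPM at chr17:43251420-43252286, and the U1 gene RNU1-1 gave 219 and 261 CPM. RNU5E-1, a U5 gene of the same splicing machinery, gave 197 and 259 CPM. The site of MIR17HG, the host transcript of the miR-17-92 cluster, a set of growth-promoting microRNAs, lay at chr13:91347097-91349351 with 367 and 484 CPM. The host transcript of let-7a-1, MIRLET7A1HG, held 126 and 152 CPM. Of the named sites, those of the snRNAs RNU1-1 and RNU5E-1, MIR17HG, MIRLET7A1HG and the tRNA repeat were higher in replicate 2, while the chromosome 17 site differed by less than 5 CPM.

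The 10 strongest sites at that distance, scaffolds aside, were the 4 mitochondrial pseudogene sites and 6 sites of the chromosome 21 arrays. Among sites without such sequences, without tRNA or snRNA genes and leaving out the first 14000000 bases of chromosome 21, MIR17HG ranked behind only the unannotated chr3:93470195-93470995 (859 and 575 CPM) and chr13:109423918-109424563 (663 and 354 CPM). These choices of what to leave out were made after the values were seen. A site inside ROR2, a receptor of WNT5A, chr9:91796349-91799021, held 191 and 210 CPM, and an unannotated site at chr2:64750547-64751891 held 180 and 198 CPM.

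The strongest sites at protein-coding starts were often on the long arm of chromosome 22, with 9 of the first 20. SDF2L1, a chaperone partner of the endoplasmic reticulum whose promoter is printed above, held 288 CPM in replicate 1 and 299 CPM in replicate 2. The site of MBOAT7, a lipid acyltransferase, on chromosome 19, which also covers the start of the tRNA splicing gene TSEN34, held 289 and 254 CPM. CRKL, an adaptor protein that BCR-ABL1 is known to phosphorylate, held 262 and 267 CPM. THAP7 held 245 and 249 CPM and SLC25A1, the mitochondrial citrate carrier, 239 and 251 CPM. NUP214, a nuclear pore gene near ABL1 on chromosome 9, held 246 and 237 CPM, and SETD5, on chromosome 3, held 236 and 251 CPM. FAM72A and SRGAP2C, at 240 and 244 CPM and at 227 and 230 CPM, belong to families of near-identical copies, so their reads could have been split or shared between copies.

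Of the 100 strongest gene-start sites, 21 lay on chromosome 22, which held 238 of all 10512 gene-start sites with a peak in both libraries (2.26%). From the beginning of the chromosome to the end of BCR (base 23318037), the 57 gene-start sites had a median of 98.2 CPM in replicate 1 and 95.1 CPM in replicate 2. Beyond BCR the 181 gene-start sites had medians of 18.1 and 19.2 CPM, and the 10274 on other chromosomes had 28.2 and 29.7 CPM. The 3 windows of 1 Mb with the highest median gene-start site in the genome, among 273 windows with at least 10 such sites, were at 20 to 21, 19 to 20 and 21 to 22 Mb of chromosome 22. Their medians were 132, 120 and 108 CPM over 12 to 14 sites each, and the next window reached 58.6 CPM. BCR itself, whose site also covers the start of RSPH14, held 174 and 166 CPM, and ABL1 held 73.5 and 79.4 CPM. K562 is known to carry extra copies of these segments, and more DNA and more accessible DNA cannot be told apart in these counts.

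By contrast no site was listed in chr9:20732527-23932350, a stretch of 3.2 Mb with 23 protein-coding genes. Among them were CDKN2A and CDKN2B, which encode inhibitors of the cell cycle kinases, MTAP, an enzyme of methionine salvage, and the genes of the alpha, beta, omega and epsilon interferons. Only 13 of 180265 intervals between neighbouring sites were longer, against a median interval of 5512 bases. All 7 genes of the list for this segment were thus without a site. K562 is known to have lost CDKN2A, and closed and missing DNA cannot be told apart here.

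Most accessible sites lay away from gene starts, but gene starts took a larger share of the counts than of the sites. Of the 50344 sites with a peak in both libraries, 10512 (20.9%) lay within 1000 bases of a known start of a protein-coding gene, and another 2172 (4.31%) within 1000 bases of either end of a gene whose strand was not in the table. Sites 1 to 10 kb away made up 17.7%, those 10 to 100 kb away 44.2%, those over 100 kb away 12.3% and scaffolds 0.614%. Of the counts in these 50344 sites, those at gene starts nevertheless took 42.9% in replicate 1 and 45.1% in replicate 2. Their median was 28.1 and 29.5 CPM, and their median width 1125 bases. Sites 10 to 100 kb away had medians of 5.66 and 5.56 CPM and a median width of 719 bases. Per 1000 bases of width the medians still differed, at 24.5 CPM for gene starts and 7.63 CPM for sites 10 to 100 kb away. Of the 37351 chromosomal sites farther than 1000 bases from these points, 18530 (49.6%) overlapped a protein-coding gene.

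The share of gene starts rose and fell along the ranking by strength. Among the 100 strongest sites it was 25%, with 26% on scaffolds, 7 sites at mitochondrial pseudogenes, 12 at 45S ribosomal RNA genes, 6 at snRNA genes and 4 at tRNA genes. At ranks 101 to 1000 it was 72.3%, and at ranks 1001 to 5000 it was 67.5%. It then fell to 26.1% at ranks 10001 to 20000 and to 3.34% at ranks 40001 to 50344, where sites held at most 3.79 CPM.

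**Figure D1:**
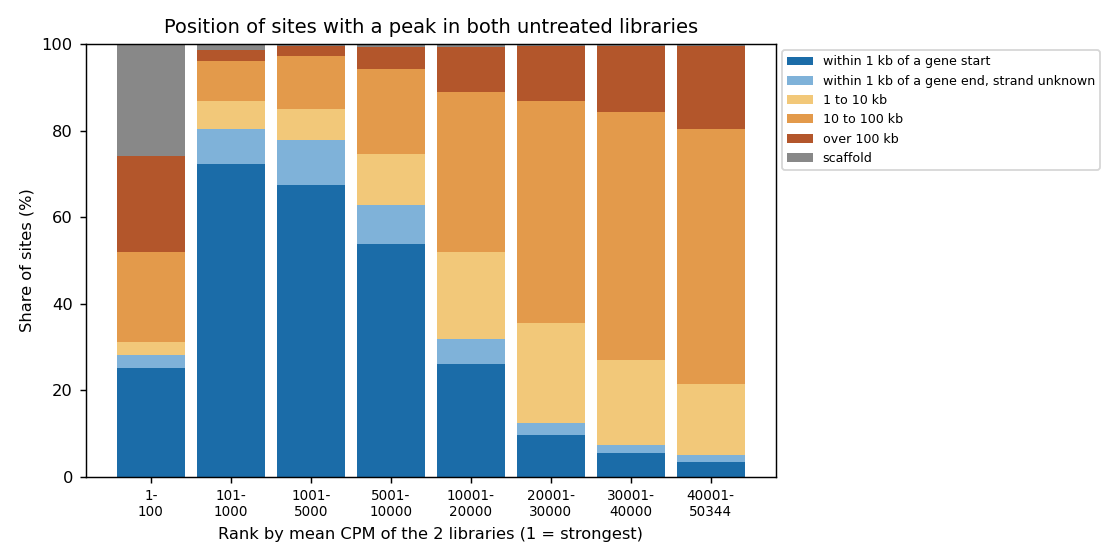
Stacked bars give the share of sites (percent) in each class of distance from a protein-coding start, for sites with a peak in both untreated libraries, in groups by rank of mean CPM. Gene starts make up 72.3% of ranks 101 to 1000 and 3.34% of the weakest group, while the first 100 ranks hold 26% scaffold sites.

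Sites called in 1 library only, or in neither, were weak. The 109312 sites with a peak in neither untreated library had medians of 0.623 and 0.572 CPM, a median of 11 and 14 counts, and together held 9.43% and 9.09% of the counts. The sites with a peak in both held 85.3% and 85.4%. Sites with a peak in replicate 2 only numbered 14403 and those in replicate 1 only 7076, with medians of 1.81 and 2.33 CPM and of 2.49 and 1.51 CPM. Replicate 2, the library with more counts, also had more peaks. Chromosome 19, the chromosome with the highest gene density, had the largest share of listed sites with a peak in both libraries (41.2%), and chromosomes 13 and 18 had 22.5% each.

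A gene was called open when a peak of both libraries lay within 500 bases of one of its starts. By this rule 10211 of 15842 protein-coding genes with a start in the promoter table were open (64.5%), and 5137 (32.4%) had no peak in either library. The open genes had medians of 32.6 CPM in replicate 1 and 34.2 CPM in replicate 2 at their strongest start site, and the 10th and 90th percentiles of their mean were 8.76 and 76.5 CPM. No listed site lay at any start of 4183 genes (26.4%). Only 114 genes were open in replicate 1 alone and 376 in replicate 2 alone. Of the gene-start sites, 1043 (9.92%) contained starts of genes on opposite strands, so that the reads of such a site cannot be assigned to one gene.

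Peak summits at open starts formed a pair of groups rather than one. For 7913 genes with a single open start in the promoter table and a summit of each library within 1000 bases, the summit nearest the start lay 150 to 300 bases upstream in 29.1% of genes in replicate 1 and 27.0% in replicate 2. It lay 50 to 175 bases downstream in 34.7% and 34.4%, and within 50 bases of the start in 12.3% and 12.2%. The most frequent step of 25 bases began 100 bases downstream in both libraries. The libraries placed the summit on the same side of the start in 83.4% of genes, with a median distance of 23 bases between their summits.

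**Figure D2:**
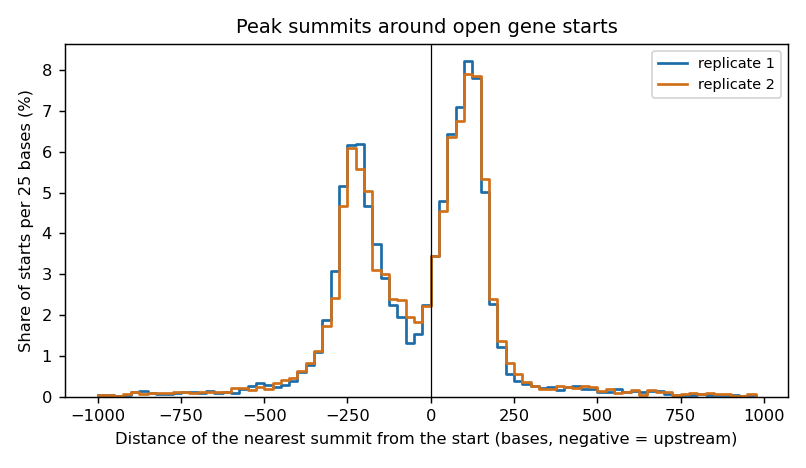
Lines give the share of 7913 open starts (percent per 25 bases) by the distance in bases of the nearest peak summit from the start, for each untreated library, with negative distances upstream. Both libraries show one group of summits 150 to 300 bases upstream and one 50 to 175 bases downstream, with a dip near the start.

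Open promoters were rich in G and C. The median G and C content over the 300 bases was 66.3% in 12101 promoters with a peak of both libraries and 54.3% in 9360 with a peak in neither. The share with a peak of both rose from 4.89% of 1411 promoters under 40% G and C, over 46.9% of those from 50 to 60%, to 76.0% of 5742 with at least 70%. Each motif was searched on both strands, and matches of different motifs may overlap. The GC box GGGCGG, which SP and KLF factors bind, was found in 75.1% of open promoters, 32.1% of those with a peak in neither and 56.3% of all 22199. The ETS core CCGGAAG was found in 20.3%, 3.72% and 12.8%, and the palindromic CRE TGACGTCA in 3.39%, 0.897% and 2.26%. The TATA box TATAAA went the other way, with 4.48% of open promoters, 15.9% of those with a peak in neither and 9.47% of all. The CCAAT box was found in 36.4% of open promoters and in 53.8% of the 1211 open promoters with the highest sites (at least 79.1 CPM), to which SDF2L1 belongs, against 34.7% of all.

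The GATA core was rare in open promoters as a whole. AGATAA or TTATCT occurred in 4.56% of open promoters, in 12.1% of those with a peak in neither and in 7.91% of all. Among the 46 open promoters of genes on the 4 red cell lists, 16 (34.8%) held it, LYL1 and PPOX among them. These lists hold genes known for GATA1 control, and promoters of 1 gene can overlap, so the count is a description of the lists. The core is made mostly of A and T. The 46 promoters had a median G and C content of 65.5% and a lower quartile of 51.75%, against 66.3% and 60.3% in open promoters. The part of base composition in these shares was not tested. The CACCC box CCACACCC was found in 2 of the 46 promoters (4.35%), in 3.13% of open promoters and in 3.41% of all.

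Genes of the red cell lineage were mostly open, and genes of other lineages mostly were not. Of 57 genes on the 4 red cell lists, 51 were open, against 64.5% of all genes. Their median strongest start site was 30.3 CPM in replicate 1 and 28.8 CPM in replicate 2, against 17.1 and 17.7 CPM over all genes. The latter include genes that were not open, and open genes alone had medians of 32.6 and 34.2 CPM. By list the median was 47.5 CPM for haem and iron, 35.8 CPM for erythroid factors, 17.7 CPM for membrane genes and 14.4 CPM for globins. Of 46 genes on the lists for granulocytes and monocytes, B cells and T or NK cells, 14 were open, and of 61 on 6 lists of other tissues, 8 were open. All 15 housekeeping genes were open, from 15.9 to 97.1 CPM. Counts of open members are read against the 64.5% of all genes, and the lists were not tested.

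**Figure D3:**
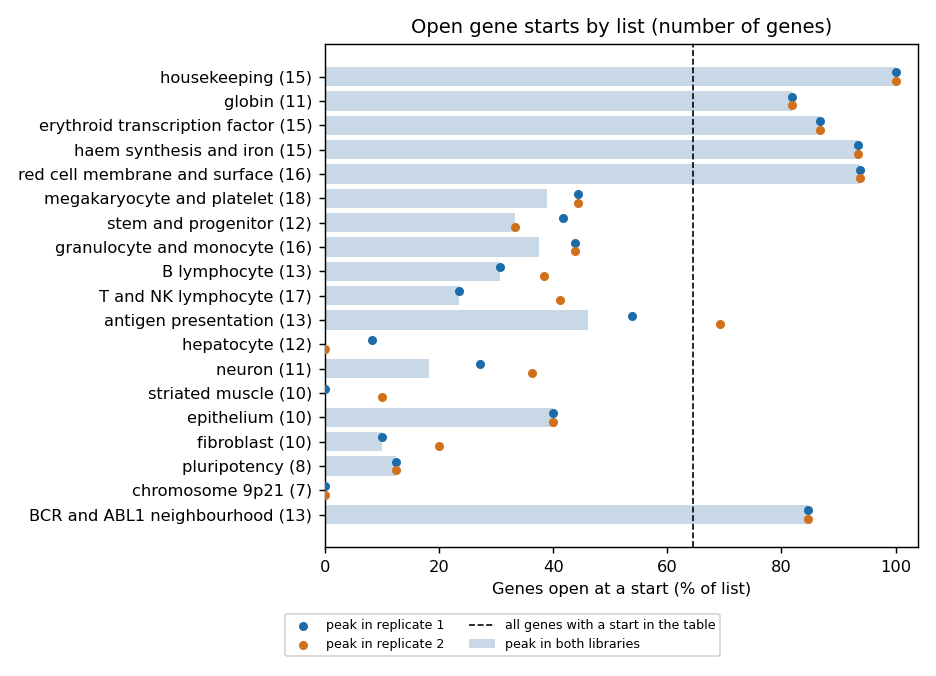
Bars give the percent of each list's genes that were open at a start in both untreated libraries, points the percent with a peak in each library, and the dashed line the 64.5% of all genes. The 4 red cell lists, the housekeeping list and the BCR and ABL1 neighbourhood lie above the line, and all other lists below it in both bars and single libraries except antigen presentation in replicate 2.

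Of 11 genes on the globin list, 9 were open, and the fetal and alpha globins were among the strongest. HBA1 held 38.7 CPM in replicate 1 and 50.9 CPM in replicate 2, HBQ1 38.9 and 45.7 CPM, and HBG2 and HBG1, the fetal gamma globins, 36.6 and 32.7 CPM and 34.7 and 33.8 CPM. HBE1, the embryonic epsilon globin, was weaker at 5.15 and 2.98 CPM, but 6 distal sites nearest to its start summed to 107 and 90.5 CPM. HBD, the adult delta globin, was open at 12.6 and 16.2 CPM. HBB, the adult beta globin, and HBM had no listed site at their starts. The nearest site with a peak in both libraries lay 1073 bases from the HBB start, over the far end of the gene, and held 77 and 92 counts. HBA1 and HBA2, and HBG1 and HBG2, are near-identical pairs, so their values may share or lose reads.

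Of 15 erythroid transcription factors, 13 were open. ZFPM1, the GATA1 cofactor FOG1, held 77.9 and 70.2 CPM, LYL1 67.9 and 74.5 CPM, and ZBTB7A, a repressor of fetal globin, 60.6 and 56.9 CPM. TAL1 held 51.2 and 46.6 CPM, and GATA1, the factor that defines the lineage, only 11.7 and 10.9 CPM, below the median gene. GFI1B's strongest site, at 27.8 and 19.7 CPM, also covered an end of TSC1, and a site over another of its starts held 194 and 237 counts. The genes that were not open were KLF1 and BCL11A. KLF1, the activator of adult beta globin, had no listed site within 500 bases of its start, but a site inside the gene, 1238 bases away at chr19:12884809-12885963, held 55.1 and 61.5 CPM with a peak in both libraries. BCL11A, the repressor of fetal globin, had a site 218 bases from its nearest start with 7.36 and 7.03 CPM, whose peaks lay outside the window.

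Of 15 genes of haem synthesis and iron handling, 14 were open. The strongest were PPOX, the next to last enzyme of the haem pathway, at 102.6 and 114 CPM, SLC25A38, the mitochondrial glycine carrier, at 85.9 and 96.0 CPM, and UROD at 77.2 and 71.9 CPM. TFRC, the transferrin receptor that brings iron into the cell, held 39.6 and 47.2 CPM. ALAS2, the erythroid form of the first and rate-limiting enzyme, was the exception: no site was listed at its start, although its promoter, printed above, holds the GATA core. The nearest site with a peak in both libraries lay 2363 bases from the start, inside the gene, with 212 and 202 counts.

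Of 16 genes of the red cell membrane and surface, 15 were open, at lower levels. EPB41, the skeletal protein 4.1, held 56.5 and 71.6 CPM, and EPOR, the erythropoietin receptor, 37.0 and 40.5 CPM. The site with the highest value, at 96.1 and 111 CPM for RHCE, also covered the start of MACO1, and the site at another RHCE start held 17.1 and 19.1 CPM. ERMAP, at 50.7 and 49.2 CPM, shared its site with SVBP. SLC4A1, the anion exchanger band 3, was not open: its strongest start site held 22 and 12 counts, and a site 982 bases away inside the gene held 13.9 and 9.11 CPM.

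**Figure D4:**
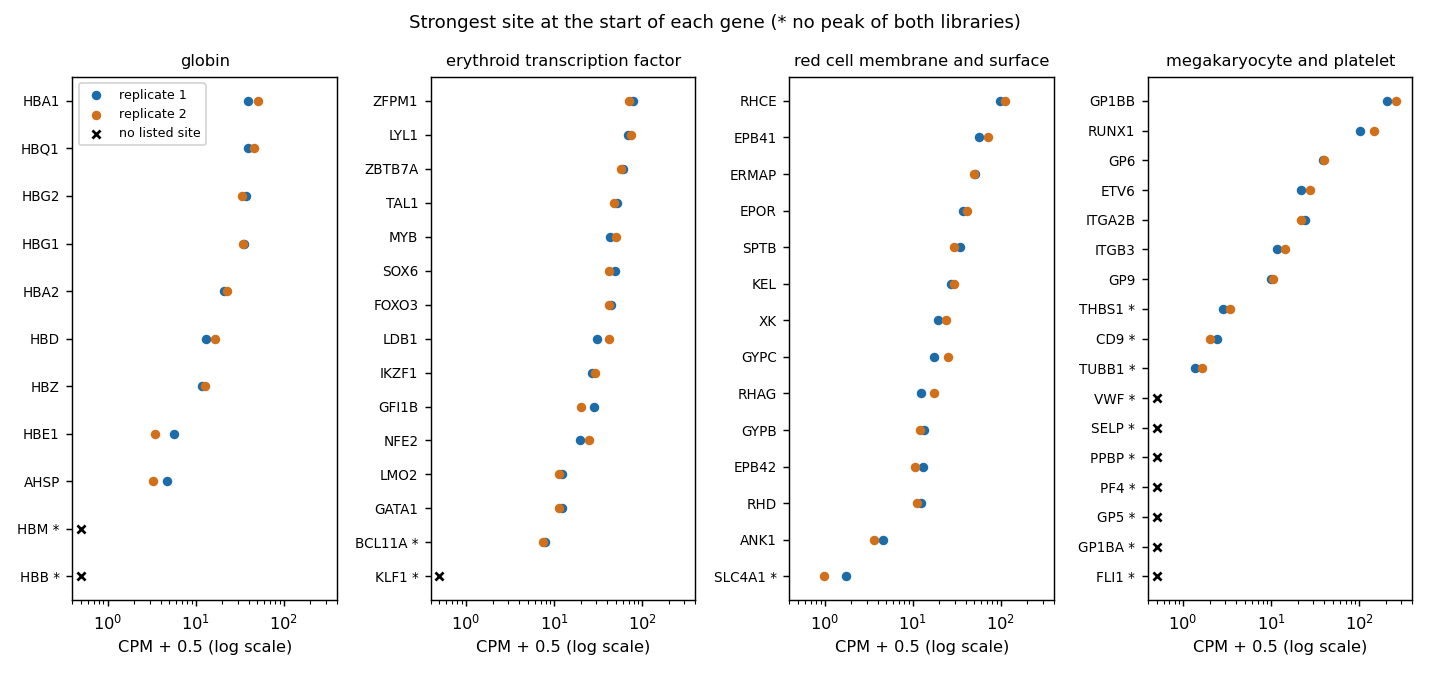
Points give the strongest listed site within 500 bases of a start of each gene, as CPM + 0.5 on a log axis, in each untreated library, for most members of 4 lists, crosses mark genes with no listed site there, and an asterisk marks genes without a peak of both libraries. GATA1 and LMO2 lie lowest among the open erythroid transcription factors, RHCE and GP1BB share their sites with MACO1 and SEPTIN5, and FLI1, PF4 and VWF are among the megakaryocyte and platelet genes without a listed site.

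Of 18 megakaryocyte and platelet genes, 7 were open. RUNX1, a factor that megakaryocytes need, held 99.9 and 147 CPM, and GP6, the platelet collagen receptor, 38.0 and 39.6 CPM. GP1BB, part of the von Willebrand factor receptor, had 203 and 259 CPM, but its site also covers a start or end of SEPTIN5 and lies in the chromosome 22 stretch described above. ETV6 held 21.3 and 26.7 CPM, ITGA2B and ITGB3, the chains of the platelet fibrinogen receptor, 23.8 and 21 CPM and 11.1 and 13.8 CPM, and GP9 9.39 and 9.85 CPM. No site was listed at the starts of 8 genes, among them FLI1, PF4, PPBP, VWF and SELP.

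Of 12 stem and progenitor genes, 4 were open, and GATA2 was the strongest at 50.1 and 55.1 CPM, followed by MEIS1 at 25.0 and 18.4 CPM, MECOM at 15.3 and 11.9 CPM and HLF at 6.28 and 5.64 CPM. KIT, the stem cell factor receptor, had a peak in the window in replicate 1 only, from a site of 8.77 and 11.4 CPM that began 419 bases from its start. CD34 had no listed site at its start, yet 7 distal sites nearest to it summed to 95.4 and 89.1 CPM.

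Of 16 granulocyte and monocyte genes, 6 were open: SPI1, the factor PU.1, at 32.1 and 33.7 CPM, CD33 at 18.1 and 18.8 CPM, LYZ at 10.1 and 12.2 CPM, CEBPA at 9.56 and 7.85 CPM, ITGAX at 3.17 and 4.74 CPM and ITGAM at 4.24 and 2.74 CPM. The granule protein genes MPO, ELANE, PRTN3, AZU1 and CTSG had no listed site at their starts. Of 13 B cell genes, RAG1, EBF1, CR2 and CD79A were open. RAG1 held 36.7 and 35.6 CPM, but its site also covers a point of TRAF6, while EBF1 held 23.1 and 21.5 CPM. Of 17 T and NK cell genes, GATA3 (9.34 and 8.09 CPM), PRF1 (7.75 and 9.52 CPM), CD3D (6.68 and 7.23 CPM) and CD8A (4.13 and 5.19 CPM) were open. By the peaks of replicate 2 alone the count was 7, since TCF7, CD247 and LCK had a peak there, and the TCF7 site, with 27.5 and 29.6 CPM, also covers an end of VDAC1.

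Of 13 genes of antigen presentation, 6 were open, or 7 and 9 by the peaks of replicate 1 and replicate 2 alone, with TAP2 at 59.1 and 64.2 CPM, B2M, the light chain of class I molecules, at 42.7 and 49.4 CPM and TAP1 at 44.4 and 46.9 CPM. The B2M site also covers an end of PATL2, and the TAP1 site one of PSMB9. HLA-C held 16.4 and 14.7 CPM, HLA-B 6.40 and 6.13 CPM and HLA-DRB1 5.60 and 4.78 CPM. CIITA and NLRC5, the activators of class II and class I genes, had no listed site at their starts. HLA genes are similar to each other and highly variable, and how their reads were placed is not given in the sources used here.

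None of the 12 liver genes and none of the 10 striated muscle genes was open, and 9 and 8 of them had no listed site at a start. By the peaks of single libraries 1 liver gene (HNF4A, replicate 1) and 1 muscle gene (TNNT2, replicate 2) were open, neuron genes numbered 3 in replicate 1 and 4 in replicate 2, and fibroblast genes 1 and 2. Among neuron genes GAD1 (33.7 and 30.8 CPM) and SYN1 (7.81 and 6.78 CPM) were open, among fibroblast genes COL1A2 (4.87 and 4.94 CPM) and among pluripotency genes LIN28B (7.30 and 8.87 CPM), the regulator of let-7 maturation. Of 10 epithelial genes, 4 were open: MUC1 at 35.4 and 57.9 CPM, KRT8 and KRT18, which share 1 site, at 29.9 and 33.8 CPM, and EPCAM at 12.3 and 17.7 CPM.

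Among gene families, those of general cell functions were mostly open, against 64.5% of all genes. All 69 genes of mitochondrial ribosomal proteins, all 40 NDUF genes of respiratory complex I and all 13 cytosolic aminoacyl-tRNA synthetases with a start in the table were open. Of 69 cytosolic ribosomal protein genes, 66 were open, and the exceptions were RPL10L, RPS4Y1 and RPS4Y2. Of 34 proteasome genes, 31 were open, and the exceptions were PSMA8, PSMB10 and PSMB11, forms known from testis, immune cells and thymus. In contrast, again among genes with a start in the promoter table, 10 of 314 olfactory receptors, 1 of 34 keratins (KRT8; KRT18 is not among the 34), 1 of 12 cadherins (CDH23), 3 of 47 clustered protocadherins and none of 20 bitter taste receptors or 18 beta-defensins were open. In the HOX clusters, HOXA3 was the open gene among 9 HOXA genes in the table and HOXD8 and HOXD10 were open among 8 HOXD genes. Other families lay between: 368 of 437 C2H2 zinc finger genes (84.2%), 48 of 64 replication-dependent histone genes (75%) and 10 of 32 collagen genes were open. The families were chosen after earlier results of these data were known.

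Sums of distal accessibility differed widely between genes. Over 9042 genes with at least 1 distal site, the median sum of CPM over sites 1 to 50 kb from their start was 13.7, and the 90th percentile was 57.3. GPC5 had the highest sum, at 505 CPM in replicate 1 and 700 CPM in replicate 2, of which the MIR17HG site, assigned to it as the nearest protein-coding start, makes up the larger part. LAPTM5, a lysosomal membrane protein of blood cells, followed with 394 CPM in each library over 10 sites, and IQSEC1 held 272 and 297 CPM over 19 sites. MACF1, a cytoskeletal linker, had the most sites, 24, with 254 and 284 CPM. Of the 15 erythroid factors, 9 were above that percentile: ZFPM1 (191 and 219.9 CPM), LMO2 (114 and 129 CPM), GFI1B (95.3 and 92.8 CPM), NFE2, IKZF1, LYL1, MYB, TAL1 and KLF1. GATA1 and LDB1 lay near the median gene, and BCL11A below it. Of the other red cell lists, 1 of 11 globin, 4 of 15 haem and iron and 5 of 16 membrane genes were above it. Of 46 genes of other blood lineages, 1 on each of 3 lists was. So were 5 of 18 megakaryocyte and platelet, 3 of 15 housekeeping, 2 of 11 neuron and 2 of 10 epithelial genes. The same held for 1 of 12 stem and progenitor and 1 of 8 pluripotency genes. No gene of antigen presentation, liver, striated muscle or fibroblasts was above it. The percentile covers genes with a distal site, while the lists also count genes without one. Of the 13 genes near BCR and ABL1, 6 were above it.

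From 2 to 100 CPM the libraries differed less as sites grew stronger, and gene-start sites differed less than sites over 10 kb away. Over all 181135 sites Pearson's r of log2(CPM + 0.5) was 0.969 and Spearman's rho 0.937, as a description across sites, which share the same pair of libraries and differ in width. The median absolute log2 difference was 0.267, and 2.08% of sites differed by more than 2-fold. At gene-start sites with a peak in both libraries r was 0.982 and the median absolute difference 0.154. At sites over 10 kb away with a peak in both, r was 0.946 and the median absolute difference 0.233. The spread (SD) of the log2 ratio fell from 0.437 at 2 to 5 CPM to 0.238 at 50 to 100 CPM, where counting alone would give 0.0561, and was 0.342 at 100 CPM and over, so the libraries differed by more than counting error.

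The peak lists shared their strongest entries. Of the replicate 1 peaks, 85.9% overlapped a peak of replicate 2, and 75% of the replicate 2 peaks overlapped one of replicate 1. Among the 5000 peaks with the highest −log10 q, 100% of either list were shared, and at ranks 30001 to 40000 the shares were 90.2% and 83.5%. At ranks 50001 to 61873 they were 56.3% and 44.0%. Peaks found in 1 list only were narrower, with median widths of 229 and 241 bases against 577 and 605 bases for shared peaks, and their median fold enrichment, the authors' value, was 4.81 and 4.87 against 7.31 and 7.65.

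Sites at some kinds of repeated genes differed between the libraries in one direction. All 22 sites over 45S ribosomal RNA genes and 36 of 44 mitochondrial pseudogene sites with a peak in both libraries were higher in replicate 1, with medians of the log2 ratio of replicate 1 to replicate 2 of 0.65 and 0.90. All 17 sites over 5S ribosomal RNA genes and 235 of 237 tRNA gene sites with a peak in both were higher in replicate 2, with medians of -0.73 and -0.69. The 78 sites at snRNA genes with a peak in both had a median of -0.11. The 309 scaffold sites with a peak in both had a median of 0.26, and 240 of them were higher in replicate 1. The 49643 remaining sites with a peak in both had a median of -0.0013. The tRNA and 5S genes are transcribed by RNA polymerase III and the 45S genes by RNA polymerase I. Of the counts, tRNA gene sites took 0.855% in replicate 1 and 1.36% in replicate 2. In replicate 2 they held 14.9% of the 476 sites that were more than 2-fold higher there, among sites of at least 2 CPM, while none of the 777 sites more than 2-fold higher in replicate 1 was at a tRNA gene and 0.30% of the sites within 2-fold were. Replicate 2 also had the larger total, and the part of depth in these differences was not tested.

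**Figure D5:**
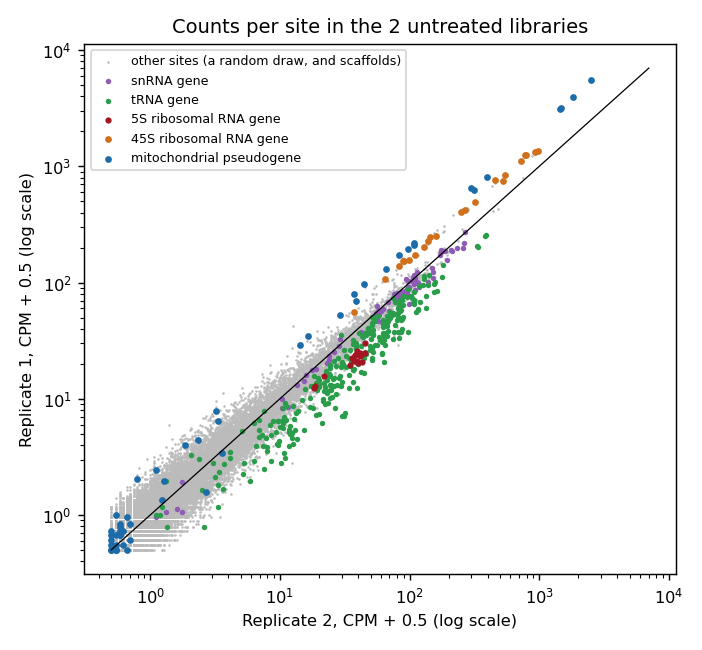
Points give the CPM + 0.5 of single sites in replicate 1 against replicate 2 on log axes, with kinds of genes in colour and the line of equal values. Sites at 45S ribosomal RNA genes and the strong mitochondrial pseudogene sites lie above the line, and nearly all tRNA and all 5S ribosomal RNA gene sites lie below it.

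Other sites differed more, one by one. By the difference of log2(CPM + 0.5), the largest excess of replicate 1 among sites of at least 2 CPM was 8.04 against 0.858 CPM (142 and 21 counts) at chr5:159638797-159639367, followed by sites nearest to FBXO48 (105 and 22 counts) and RUFY1 (76 and 14 counts). By the same measure, which differs from the order by plain ratio, the largest excess of replicate 2 was at chr7:5523857-5524341, 6260 bases from a start of ACTB, with 3.28 and 19.6 CPM (58 and 480 counts). It was followed by a site in TSPAN32 (21 and 189 counts) and one without annotation on chromosome 21 (168 and 1163 counts). None of these 6 sites had a peak in both libraries.

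A small set of peaks had high enrichment in the authors' lists and almost no counts in the table. Of the sites with a peak in both libraries, 88 held under 10 counts in each, and 12 of these held none. Their median width was 206.5 bases against 778 bases for all such sites. The 88 peaks over them in replicate 1 had a median fold enrichment of 13.5, against 6.72 over all peaks, and those in replicate 2 of 10.3, against 6.49. The highest fold enrichment in replicate 1, 27.0, belonged to a peak over chr18:47853023-47853244, an intronic copy of a mitochondrial gene (MTCO2P2) within SMAD2, which held 1 count in each library. Of the 20 peaks with the highest fold enrichment, 11 in replicate 1 and 8 in replicate 2 overlapped a site with under 10 counts in that library. How peaks and counts treated reads that fit several places is not given in the sources used here.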

How the data were processed

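The data were the 2 untreated ATAC-seq libraries (0 h) of K562. Per the submitters' processing notes, Trim Galore 0.4.3, BWA 0.7.17, SAMtools 1.9, deepTools 3.0.1, MACS2, bedtools 2.26 and DESeq were used with the build hg38; their settings, and how the site list was made, are not given in the sources used here. The authors deposited a table of whole read counts per site, taken as raw counts, and a peak list per library that gives each peak a fold enrichment (a ratio to background), a p-value and a q-value, the last pair on a −log10 scale. Counts were divided by each library's total over the listed sites and given as CPM. Columns and peak lists of the treated samples were not used. Some members are counted in their lists and are not reported here by name.

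Protein-coding genes (20037) came from the RefSeq table of GRCh38.p14. Starts came from the promoter table of the same build and from the 5′ end of each gene of known strand (15842 genes); for 79 listed genes outside that table the strand was added from general knowledge, and 4116 genes stayed without strand. Sites near genes without strand are therefore given apart. The members and lists were chosen with earlier results of these data known. Named were the 20 strongest sites in groups, the strongest distal and gene-start sites, up to 3 sites per direction that differed most between libraries, the smaller of the open and not open members of each list with up to 3 strongest, and up to 5 genes by distal sum; longer sets are given by counts and examples. The ranking of gene-start sites, the gene families, the sites by kind of RNA gene, the 1 Mb windows and the peaks with few counts were added after the data were seen, as were other members named beside these. Both untreated libraries differed by more than counting noise (chi-square per degree of freedom 4.62 over all sites), so neither is a copy of the other. Intervals, counts and nearest starts were checked on simulated data with Python 3.11.15, and TMM factors came from edgeR 4.0.16 in R 4.3.3.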

Additional observations from a re-analysis of the deposited data

How the results depend on the processing

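The share of genes open at a start was 64.46% and moved to 66.04% with a window of 1000 bases, 60.14% at the start base itself, 67.57% with a peak in at least 1 library and 61.56% when only peaks of −log10 q from 10 up were used; leaving out a replicate gave 65.2% to 66.85%. The share of chromosomal sites with a peak in both libraries that lay within 1000 bases of a start was 21.01%, and 19.94% within 500 bases, 23.44% within 2500 bases, 26.99% with the same stricter peaks and 16.11% with a peak in at least 1 library; leaving out a replicate gave 17.51% to 18.82%. The mean share of peaks that overlapped the other list was 80.43%, and 65.13% with a reciprocal overlap of 50%. Pearson's r of the counts was 0.9691, and 0.95 with a pseudocount of 0.1 CPM and 0.9795 with 2 CPM. The strongest 1% of sites held 21% of the counts, 12.05% when taken among sites with a peak in both libraries and 19.8% when ranked by CPM per kb; leaving out a replicate gave 20.4% to 21.59%. Without sites on scaffolds, at rRNA, tRNA and snRNA genes and at mitochondrial pseudogenes, an alternative chosen after seeing the data, they held 18.27%. Of the 20 strongest sites, 9 were among the 20 strongest by CPM per kb and 1 by the authors' fold enrichment; leaving out a replicate kept 19. The lists had 116 open members in all, and 109 to 135 under the alternatives. For single lists the count moved by over 1.5 times in 6 of 19 lists with a peak in at least 1 library, in 4 with the wider window and in 4 and 1 without replicate 1 and 2, and in none with the stricter peaks; T and NK cells went from 4 to 7 without replicate 1. TMM factors of 1.01 and 0.99 left r at 0.9691 and 19 of the 20 strongest sites.

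No paired analysis was possible because the described libraries form 1 group and no contrast between groups was fitted. Precision is limited by the 2 libraries, and a gene with no listed site is one without a listed site, not one shown to be closed: 3 counts come to 0.17 CPM in replicate 1 and 0.123 CPM in replicate 2.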
